A study of Homo sapiens with 6 samples.

Results

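The miR-15/16 family was followed in small RNA libraries through 10 mature microRNA (miR) names, matched in the 2588 names of the count table against a given list. They are 7 guide arms, hsa-miR-15a-5p, hsa-miR-15b-5p, hsa-miR-16-5p, hsa-miR-195-5p, hsa-miR-424-5p, hsa-miR-497-5p and hsa-miR-503-5p, and 3 passenger arms, hsa-miR-15b-3p, hsa-miR-16-2-3p and hsa-miR-424-3p, given below without the prefix for human. The libraries came from HEK293T cells, a human embryonic kidney cell line, transfected with 50 nM of pooled siRNAs (siPOOLs) against RPL24 (RPL24 KD) or with non-targeting siPOOLs (NC). RPL24 is a protein of the large ribosomal subunit, and the comparison asked which miRs depend on it. Each group had 3 libraries, and RNA was taken 72 h after the siPOOLs. The protocol in the labels also describes a miR-608 plasmid given 24 h before harvest, in both groups alike, whereas the study describes the sequencing as a knockdown experiment of its own. miR-608 had 0 counts in all 6 libraries. All libraries came from one cell line, and nothing states whether they were separate cultures, so that p-values measure the spread between these libraries, which may be technical.

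A miR is cut from a hairpin by Drosha and Dicer, and one arm of the resulting duplex, the guide, is kept in Argonaute while the other, the passenger, is mostly degraded. The guide finds its messenger RNA targets mainly through its seed, the bases from 2 to 8. Guides of the miR-15/16 family act on messengers of the cell cycle and of survival, such as those of cyclin D1, cyclin E1, CDK6 and BCL2, and the hairpins MIR15A and MIR16-1 are known for their loss in chronic lymphocytic leukaemia.

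The sequences of the guides are shown because the seed is what makes them a family, with the seed in capitals (RefSeq, GRCh38.p14, 5′ to 3′). All 10 member names were found in the RefSeq table, which held 2281 of the 2588 names of the count table.

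miR-15a-5p: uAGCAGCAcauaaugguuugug
miR-15b-5p: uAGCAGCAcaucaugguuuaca
miR-16-5p: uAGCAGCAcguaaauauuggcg
miR-195-5p: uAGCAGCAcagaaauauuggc
miR-424-5p: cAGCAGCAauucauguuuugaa
miR-497-5p: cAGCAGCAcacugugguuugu
miR-503-5p: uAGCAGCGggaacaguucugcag

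Of these guides, 6 had the same seed, which RefSeq gives to 7 human miRs in all, the remaining one being miR-6838-5p. The seed of miR-503-5p ends in another base and was found in no other human miR of the RefSeq table. miR-16-5p and miR-195-5p differed by an edit distance of 3 bases, the least of any pair of these names. Whether reads with errors passed between them was not tested. How reads matching more than 1 name were counted is not given in the sources used here.

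The passenger arms are shown with the same capitals because the only member that passed the test is among them, beside miR-195-3p, which is not a member and has the seed of miR-16-2-3p.

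miR-15b-3p: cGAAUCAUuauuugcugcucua
miR-16-2-3p: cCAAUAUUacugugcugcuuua
miR-424-3p: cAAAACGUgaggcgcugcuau
miR-195-3p: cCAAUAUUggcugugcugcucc

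The seed of miR-424-3p is unrelated to that of the guides and belonged to no other human miR of the RefSeq table. Among the other RefSeq miRs that are also names of the count table, none came closer to miR-424-3p than an edit distance of 7 bases. The hairpin MIR424 holds both of its arms, here in capitals with the 5p arm first.

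MIR424: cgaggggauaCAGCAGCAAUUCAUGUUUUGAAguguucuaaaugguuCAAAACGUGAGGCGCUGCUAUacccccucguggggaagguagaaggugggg

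The members come from 8 hairpins, which lie as 4 close pairs. MIR15A, chr13:50049119-50049201, and MIR16-1, chr13:50048973-50049061, are 57 bases apart on the minus strand in the noncoding host DLEU2, both intronic in 6 of its transcripts, while MIR15A overlaps an exon in part in 2 others. MIR15B, chr3:160404588-160404685, and MIR16-2, chr3:160404745-160404825, are 59 bases apart on the plus strand in an intron of SMC4, which encodes a condensin subunit. MIR195, chr17:7017615-7017701, and MIR497, chr17:7017911-7018022, are 209 bases apart on the minus strand in MIR497HG, intronic in 1 of its transcripts and exonic in 1. Both also lie in AC040977.2 on the same strand, intronic in 1 of its transcripts. MIR424, chrX:134546614-134546711, and MIR503, chrX:134546328-134546398, are 215 bases apart on the minus strand in MIR503HG, where MIR424 overlaps an exon in part and MIR503 is intronic, each in 3 transcripts. Coordinates are those of GRCh38 and were the same in RefSeq and GENCODE 29. miR-16-5p comes from both MIR16-1 and MIR16-2, and its reads cannot be split between them.

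The libraries held from 398721 to 611745 counts, and 1205 of the 2588 names had at least 1 count. Counts were scaled to CPM (the count of a miR per 1000000 counts of its library) with TMM factors from 0.982 to 1.03. A count of 3, taken as the floor, corresponds to 4.90 to 7.52 CPM. RPL24 messenger RNA is not measured by small RNA counts, so the knockdown could not be checked here. Of 9 miRs listed as markers of liver, muscle and blood, 8 had at most 7 counts in any library, while the muscle miR-1-3p had from 104 to 203 counts. It was at 256 ± 13.0 CPM after KD and 337 ± 24.7 CPM in NC (SD, n = 3 each), a log2 fold change of -0.40 (SE 0.112, edgeR adjusted p = 0.0557), and its part in the results below was not tested. The muscle miR-206 and the myeloid miR-223-3p had 0 counts. The 4 miRs listed as abundant in this line, miR-10a-5p, miR-10b-5p, miR-196a-5p and miR-196b-5p, had from 1497 to 39385 counts. NC libraries differed more from each other, with a chi-square per degree of freedom of 12.0 to 21.5 over miRs, than KD libraries did, with 2.50 to 2.84. One column per group has a replicate number found in no label, and it is called the unnumbered library below.

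All 10 members had counts in every library, and together they took 0.423 to 0.484% of a library's counts. Their levels are given in CPM without a length term, since a read covers a whole mature miR. miR-16-2-3p, at 1019.6 to 1158 CPM over the 6 libraries, and miR-16-5p, at 943 to 1177 CPM, were the most abundant, and their ranges overlapped. miR-503-5p followed at 694 to 839 CPM and miR-424-3p at 574 to 872 CPM, again with overlapping ranges. The other members lay lower, in the order miR-15b-5p (373 to 563 CPM), miR-15b-3p (182 to 296 CPM), miR-424-5p (121 to 161 CPM) and miR-15a-5p (38.4 to 57.5 CPM), with no overlap between these 4. miR-195-5p, at 15.7 to 32.9 CPM, and miR-497-5p, at 13.3 to 22.5 CPM, were the least abundant and overlapped. In MIR424 the arm named as the passenger thus had more reads than the guide. For miR-16 the passenger of MIR16-2 had about as many reads as the guide. These orders are of reads, and how evenly the library preparation captured different sequences was not tested.

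**Figure D1:**
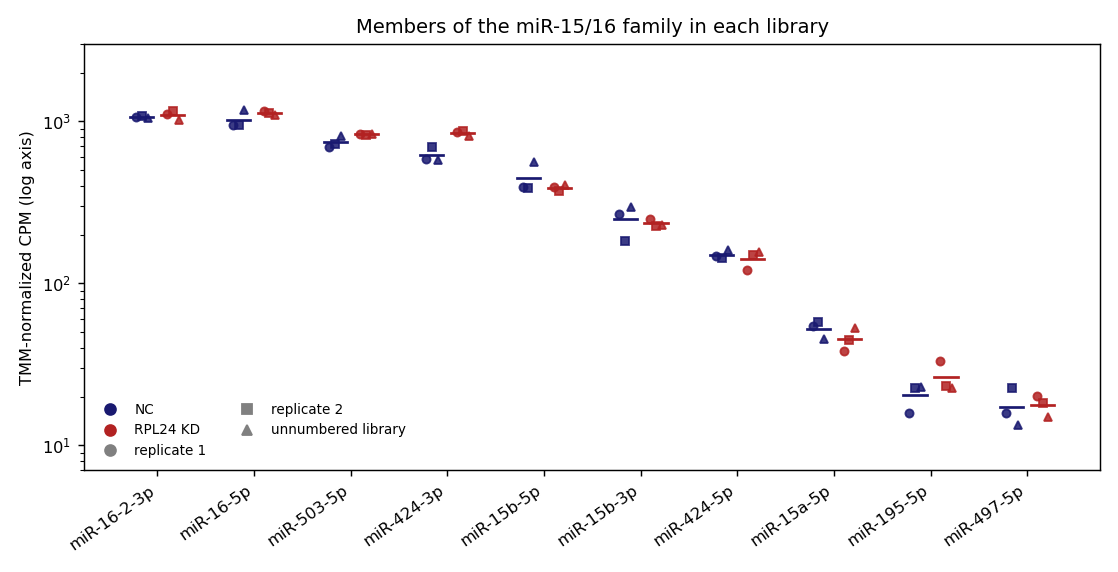
TMM-normalized CPM (log axis) of the 10 members in the 3 NC and 3 RPL24 KD libraries, ordered by mean level, with points for libraries and bars for group means. The groups are apart for miR-424-3p, at 812 to 872 CPM in KD and 574 to 695 CPM in NC, and for miR-503-5p by a narrow gap.

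Between the groups, miR-424-3p rose by 0.47 on the log2 scale after RPL24 KD, and no other member passed the test. The test was the quasi-likelihood test of edgeR over the 360 miRs that passed a filter on low counts, of which 9 are members, and a miR with an adjusted p under 0.05 was called differentially expressed (DE). Of the 9 tested members 1 was higher, 0 were lower and 8 were not called. Among all 360 miRs 5.00% were called in either direction and 3.33% as higher, and 1 of 9 is too small a count to be set apart from those shares. The median log2 fold change of the tested members was 0.05, against -0.01 for all tested miRs, with 5 positive and 4 negative values. Their median absolute log2 fold change was 0.164, against 0.163 for all tested miRs.

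**Figure D2:**
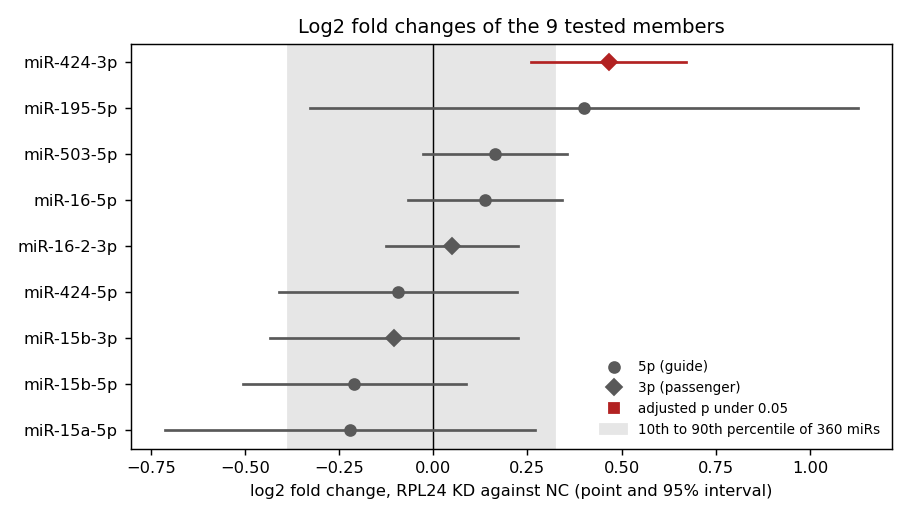
Log2 fold changes of RPL24 KD against NC for the 9 tested members (points, circles for 5p and diamonds for 3p arms) with 95% intervals, and the band from the 10th to the 90th percentile of 360 tested miRs, -0.39 to 0.32, in grey. The interval of miR-424-3p lies above 0 and those of the other 8 members cross 0.

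miR-424-3p had 467, 524 and 324 counts in KD1, KD2 and the unnumbered KD library, and 333, 278 and 303 counts in NC1, NC2 and the unnumbered NC library. In CPM these are 854, 872 and 812 after KD against 582, 695 and 574 in NC, with means of 846 ± 30.9 and 617 ± 67.4 (SD, n = 3 libraries each). Every KD library was above every NC library, and groups without overlap, in either direction, were seen for 27.5% of all tested miRs. The difference for miR-424-3p was 1.38-fold, or 0.47 on the log2 scale (SE 0.0958, 95% interval 0.26 to 0.67, edgeR adjusted p = 0.0132). It ranked 6 of 360 by p and 13 by log2 fold change. Leaving out KD1 gave a log2 fold change of 0.46 with an edgeR adjusted p of 0.0756, and leaving out KD2 gave 0.44 with 0.0676, so that the call was lost without either. The call was kept without any one of the other 4 libraries. Over all 360 tested miRs, 0 were called without KD1 and 8 without KD2, against 18 with all libraries. The study's own DESeq2 comparison of this experiment also lists miR-424-3p as DE and higher after KD. By RT-qPCR the study reports the same direction. In such bulk libraries, more of a miR per cell and more cells holding it cannot be told apart.

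The guide of the same hairpin, miR-424-5p, which has the family seed, had no difference that passed the test. Its counts were 66, 90 and 62 after KD and 84, 57 and 85 in NC, or 121, 149.7 and 155 CPM against 147, 142 and 161 CPM. The groups overlapped, at 142 ± 18.6 and 150.2 ± 9.74 CPM (SD, n = 3 each), with a log2 fold change of -0.09 (SE 0.147, 95% interval -0.41 to 0.22, edgeR adjusted p = 0.757). That value was 0.01 without KD1, the library with the lowest level, so no direction is read from it.

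The ratio of the arms within a library does not depend on the scaling of libraries. The log2 ratio of miR-424-3p to miR-424-5p counts, with 0.5 added to each, was 2.81, 2.53 and 2.38 in the KD libraries and 1.98, 2.28 and 1.83 in the NC libraries. All KD values were above all NC values, and the mean ratio was 5.96 to 1 after KD and 4.08 to 1 in NC. The difference of 0.55 between means of 2.57 ± 0.221 and 2.03 ± 0.228 (SD, n = 3 each) had a two-sided exact permutation p of 0.1, the smallest that 3 against 3 libraries can give, and 0.3 after Benjamini-Hochberg adjustment over 3 hairpins. Among 75 hairpin names with both arms tested, 5.33% had ratios that were higher in every KD library than in every NC library, 4 hairpins with miR-424 included. miR-424 ranked 8 of the 75 by the size of its difference, whose median absolute value over all of them was 0.136.

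The other hairpins with both arms among the members had smaller differences. For MIR15B the log2 ratio of the 3p to the 5p arm was -0.65, -0.73 and -0.80 after KD and -0.55, -1.08 and -0.93 in NC, a difference of 0.13 with overlapping groups (two-sided exact permutation p = 0.5). For miR-16-2-3p over miR-16-5p it was -0.07, 0.05 and -0.11 after KD and 0.18, 0.17 and -0.18 in NC, a difference of -0.10 with overlapping groups (two-sided exact permutation p = 0.4). Near-equal reads of both arms were thus seen for miR-16 in each library, although its 5p arm has a second source. The arms of MIR195, compared after the data were seen, had log2 ratios of 0.91 ± 0.786 after KD and 1.55 ± 0.401 in NC (SD, n = 3 each, two-sided exact permutation p = 0.4), from 9 to 38 counts per arm. Their difference of -0.64 was -0.19 without KD1.

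**Figure D3:**
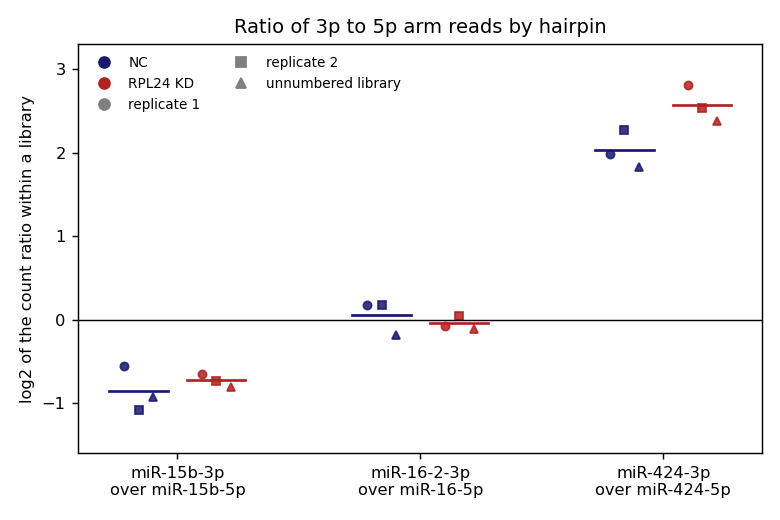
Log2 ratio of 3p to 5p arm counts within each library for miR-15b, miR-16-2 and miR-424, with points for libraries and bars for the means of the 3 NC and 3 RPL24 KD libraries. The groups overlap for miR-15b and miR-16-2, and for miR-424 the KD libraries, from 2.38 to 2.81, lie above the NC libraries, from 1.83 to 2.28.

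miR-503-5p, the guide with its own seed and the neighbour of miR-424, had 455, 497 and 335 counts after KD and 397, 288 and 429 in NC. These correspond to 832, 827 and 839 CPM against 694, 719.9 and 813 CPM. The groups did not overlap, which was also so for 27.5% of all tested miRs and for 2 of the 9 tested members, and the KD libraries lay within a far narrower range than the NC libraries. The difference between 833 ± 6.16 and 743 ± 62.6 CPM (SD, n = 3 each) was 0.16 on the log2 scale and did not pass the test (SE 0.0893, 95% interval -0.03 to 0.36, edgeR adjusted p = 0.309). Its passenger, miR-503-3p, had at most 2 counts in any library.

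miR-16-5p, the most abundant guide, had 636, 673 and 439 counts after KD and 539, 382 and 621 in NC. In CPM it was at 1163, 1119.8 and 1099.8 after KD and at 943, 955 and 1177 in NC, so that the unnumbered NC library was above all KD libraries and the other NC libraries below them. Its log2 fold change was 0.14 between 1128 ± 32.3 and 1025 ± 132 CPM (SD, n = 3 each, SE 0.0953, 95% interval -0.07 to 0.34, edgeR adjusted p = 0.426). That value was 0.24 without the unnumbered NC library (edgeR adjusted p = 0.0789) and 0.07 without NC1. miR-16-2-3p was at 1104, 1158 and 1019.6 CPM after KD and at 1065, 1075 and 1041 CPM in NC. These values of the passenger overlapped, with the narrowest 95% interval of the tested members, -0.12 to 0.22 around 0.05 (SE 0.0813, edgeR adjusted p = 0.757). The passenger of the other miR-16 hairpin, miR-16-1-3p, had 3 to 14 counts per library, and MIR16-2 gave 97.5 to 99.3% of the miR-16 passenger reads (95% Wilson bounds of single libraries from 95.9 to 99.8%, which cover counting error only). That share was 98.9 ± 0.412% after KD and 98.4 ± 0.776% in NC (SD, n = 3 each).

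miR-15b-5p, which shares an intron with MIR16-2, was at 393, 373 and 403 CPM after KD (215, 224 and 161 counts) and at 392, 387 and 563 CPM in NC (224, 155 and 297 counts). The unnumbered NC library stood above the other 5 libraries, which lay close together. The log2 fold change of -0.21 (SE 0.138, 95% interval -0.51 to 0.09, edgeR adjusted p = 0.409) was -0.02 without that library. Its passenger miR-15b-3p was at 251, 225 and 230.5 CPM after KD and at 268, 182 and 296 CPM in NC. Here too the groups overlapped, and the log2 fold change of -0.10 (SE 0.154, 95% interval -0.43 to 0.23, edgeR adjusted p = 0.745) was 0.01 without the unnumbered NC library.

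miR-15a-5p, from the DLEU2 locus, was measured from 21 to 31 counts per library. It was at 38.4, 44.9 and 52.6 CPM after KD and at 54.2, 57.5 and 45.5 CPM in NC, with overlapping groups and a log2 fold change of -0.22 (SE 0.229, 95% interval -0.71 to 0.27, edgeR adjusted p = 0.629) that was -0.11 without KD1. miR-195-5p, with 18, 14 and 9 counts after KD and 9, 9 and 12 in NC, had a log2 fold change of 0.40 whose 95% interval ran from -0.33 to 1.13 (SE 0.339, edgeR adjusted p = 0.537). Without KD1 it was 0.20 and without NC1 0.22. miR-497-5p, with 11, 11 and 6 counts after KD and 9, 9 and 7 in NC, did not pass the filter and was not tested. The intervals of miR-15a-5p and miR-195-5p were wider than those of the other 7 tested members.

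Summed, the 7 guides were at 2600.3, 2556 and 2588 CPM after KD and at 2262, 2307 and 2796 CPM in NC. The unnumbered NC library was again the highest and the other NC libraries the lowest, and the difference of 0.08 on the log2 scale between 2581 ± 23.0 and 2455 ± 296 CPM (SD, n = 3 each) was within their spread (two-sided exact permutation p = 0.4, with 0.1 the smallest possible). It was 0.18 without the unnumbered NC library and 0.02 without NC1. miR-16-5p made up 43.7 ± 1.12% of the guide reads after KD and 41.7 ± 0.359% in NC, and miR-503-5p 32.3 ± 0.232% and 30.3 ± 1.11% (SD, n = 3 each). miR-15b-5p made up 15.1 ± 0.502% and 18.1 ± 1.80%, and none of the other 4 guides exceeded 6.50% in any library.

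Of 7 further names linked to the family, the other arms of these hairpins and both arms of MIR6838, 1 passed the filter and was not called. This was miR-195-3p, with 18, 38 and 23 counts after KD and 37, 26 and 28 in NC, at 51.3 ± 16.1 and 60.9 ± 6.80 CPM (SD, n = 3 each). KD1, which had its lowest count, lay apart from the other libraries, and the log2 fold change was -0.25 (SE 0.251, edgeR adjusted p = 0.619). miR-15a-3p and miR-497-3p had at most 1 count in any library. Both arms of MIR6838, whose 5p arm has the family seed, had 0 counts in all 6 libraries, which allows up to 4.90 to 7.52 CPM in a library.

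MIR424 and MIR503 are followed on the same strand by hairpins of other families, MIR542 at 5.274 kb, MIR450A1 at 6.28 kb and MIR450B at 6.449 kb from MIR424, counted between 5′ ends. MIR450A2 lies among them. Of 7 mature names from these 4 neighbours, 4 were tested and 0 were called by edgeR. An unadjusted p under 0.05 was reached by 2 of the 4, both lower, and by 23.6% of all tested miRs. The libraries of these 2 did not overlap between the groups, as was so for 27.5% of all tested miRs. miR-542-3p had 144, 162 and 101 counts after KD and 169, 126 and 191 in NC, or 262 ± 8.35 against 324 ± 34.2 CPM (SD, n = 3 each). Its log2 fold change was -0.30 (SE 0.116, 95% interval -0.55 to -0.05, edgeR adjusted p = 0.133).

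miR-450b-5p had 477, 509 and 406 counts after KD and 603, 420 and 574 in NC, or 912 ± 91.8 against 1064 ± 20.8 CPM (SD, n = 3 each). KD1 and KD2 had its lowest levels, and the log2 fold change was -0.23 (SE 0.0890, 95% interval -0.42 to -0.04, edgeR adjusted p = 0.133). miR-450a-5p, made from a pair of hairpins, had a log2 fold change of -0.10 (SE 0.0996, edgeR adjusted p = 0.590), and miR-450a-2-3p, with 5 to 14 counts, one of 0.00 (SE 0.384, edgeR adjusted p = 0.997). The median over the 4 tested neighbours was -0.17, against -0.01 over all tested miRs.

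The cluster was therefore compared within libraries, in ratios added after these values were seen. The log2 ratio of miR-424-3p to the summed miR-542-3p, miR-450a-5p and miR-450b-5p was -0.87, -0.87 and -1.12 after KD and -1.68, -1.41 and -1.76 in NC. The KD values were all above the NC values, with a difference of 0.66 between -0.95 ± 0.144 and -1.62 ± 0.181 (SD, n = 3 each, two-sided exact permutation p = 0.1, the smallest possible). The same ratio for miR-503-5p was -0.97 ± 0.0859 after KD and -1.35 ± 0.0875 in NC (SD, n = 3 each), a difference of 0.37, also without overlap (two-sided exact permutation p = 0.1). Since these ratios were chosen for their pattern, they describe the libraries and support no call.

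Over the 6 libraries, the level of miR-424-3p (log2 CPM) followed most closely that of miR-378a-3p (Pearson r = 0.96), miR-1269b (0.96), miR-30e-3p (0.95), miR-132-5p (0.94) and miR-10b-5p (0.94). All are outside the family, and none was DE by edgeR. The study's own DESeq2 comparison lists miR-10b-5p as DE, as it does miR-424-3p itself. The points share libraries and scaling, and the values are a description. Among the other members, r with miR-424-3p ran from -0.61 for miR-15b-5p to 0.66 for miR-195-5p, and was 0.63 for miR-503-5p and -0.45 for miR-424-5p.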

How the data were processed

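Counts of small RNA reads in 3 RPL24 KD and 3 NC libraries of HEK293T cells were used. Per the labels and methods, the authors checked reads with FastQC, used Flexbar for trimming and filtering and miRExpress for alignment to miRBase and deposited raw read counts per mature miR, with no normalization. Their own comparison used DESeq2. Handling of reads matching several names is not given in the sources used here.

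Groups came from the labels. The quasi-likelihood test of edgeR 4.0.16 (R 4.3.3, bias-adjusted fit, no replicate block) was run over all miRs passing filterByExpr with a minimum count of 10, with TMM normalization and Benjamini-Hochberg adjustment at 0.05. Standard errors are those implied by the F statistic. Alternatives used DESeq2 1.42.0, limma 3.58.1, other scalings and filters, a replicate block and fits without each library, and scripts were tested on simulated data. Arm ratios were tested by exact permutation over libraries. Added after the data were seen were the numbered libraries alone, the legacy edgeR fit, the MIR195 arms and the ratios to the chromosome X neighbours.

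The members and lists were chosen with earlier results of these data known. The miRs named are all members, their other arms, the chromosome X neighbours, miRs with a member's seed, the listed cell markers and the 5 tested miRs outside the family whose log2 CPM correlated best with miR-424-3p. Mature sequences came from RefSeq (GRCh38.p14), which matched 22 of 24 family and neighbour names, and hosts from GENCODE 29.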

Additional observations from a re-analysis of the deposited data

How the results depend on the processing

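miR-424-3p kept its direction under all 16 alternatives, at a log2 fold change of 0.41 to 0.55 without single libraries and 0.42 to 0.48 otherwise, and was called in 4 of 6 and 10 of 10 of these. The number of DE members, 1, ranged from 0 to 1 without single libraries (0 without KD1 or KD2). Of 140 values of single members under alternatives, 133 kept their direction and side of the threshold. miR-15b-3p, at -0.10, turned to 0.051 with a replicate block and to 0.018 in the numbered libraries without a block, and ran from -0.26 to 0.0063 without single libraries, as miR-424-5p did from -0.16 to 0.014.

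The labels link replicates 1 and 2 across the groups by nothing but the number. Over 360 miRs, the deviations of same-numbered libraries from their group means correlated at -0.14 and 0.10. In a fit of the 4 numbered libraries with that number as a block, 2 members were DE, miR-424-3p and miR-16-5p (log2 fold change 0.26, edgeR adjusted p = 0.0289), with 1 chromosome X neighbour, miR-450b-5p, and 57 miRs in all. In the same libraries without the block, miR-16-5p was not called (0.25, edgeR adjusted p = 0.0927), and of the neighbours 1 was, miR-450b-5p again. In all, 27 miRs were DE without the block, against 57 with it. With the block, 4 libraries leave little spread to be measured within a miR, so those calls lean on the spread shared over miRs.

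Over all tested miRs 18 were DE, 12 higher and 6 lower. There were 28 with total counts (10 higher, 18 lower), 31 without the filter, 34 with robust edgeR, and 0 (56 at an unadjusted p under 0.05) to 36 without single libraries, the lowest without KD1 and the highest without the unnumbered NC library. The cause was not tested. Counts were lowest for miR-15a-5p, miR-195-5p and miR-497-5p.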
